A study of Mus musculus with 2 samples.

Results

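Claudins, connexins, pannexins and their tight junction partners were examined in wounded mouse skin with and without the vitamin D receptor in keratinocytes. The genes were taken by symbol from the authors' annotated table: every claudin (Cldn), every connexin of the alpha, beta, gamma and delta classes (Gja, Gjb, Gjc, Gjd), the zonula occludens (Tjp) genes, and Ocln, F11r, Cgn, Panx1 and Panx3. The genes reported came to 39 of the 17871 in the table, namely 20 claudins, 13 connexins, 2 pannexins and 4 other tight junction genes, measured by 53 probes. Cgn (cingulin) was not analysed here.

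The knockout sample came from C57BL6 mice of the genotype VDR fl/fl with K14 driven Cre, and the control sample from VDR fl/fl littermates without it. Both groups carried the floxed Vdr gene, were 3 months old and were fed a low calcium diet. In the knockout, Cre acts in cells that express keratin 14, so that dermal, vascular and immune cells keep Vdr. Each mouse received 2 full-thickness back wounds of 6 mm, and the wounds were cut out 3 days later with an 8 mm punch, which takes wound, wound edge and surrounding skin together. The design text gives 3 per genotype and RNA of 3 mice in each sample, which was read here as a pool of 3 mice per array. The data are 1 Illumina bead array per genotype, so that nothing below was tested against replicates, and each difference describes these 2 arrays only.

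Tight junctions close the space between neighbouring epithelial cells. Claudins span the membrane several times and join claudins of the next cell; some seal the gap and others form pores for ions. Occludin and the adhesion molecule JAM-A (F11r) lie beside them, and the cytoplasmic ZO proteins (Tjp genes) tie them to actin. In epidermis these junctions sit in the granular layer, and mice without Cldn1 die of water loss after birth. Connexins assemble into gap junctions, through which adjoining cells share ions and small molecules, and pannexins form single-membrane channels that release ATP. Human mutations in several epidermal connexins cause skin disease and deafness.

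Values are the authors' normalized intensities, a linear scale that still holds background, and differences are log2 knockout minus log2 control. A probe counted as detected when its raw signal was among as many of the brightest probes as the array had detection p-values under 0.01. This placed the floor at a normalized intensity of 176.7 on the knockout array and 172.2 on the control array. Each gene is given by its brightest probe over both arrays. Both arrays detected 8934 of the 17871 genes, whose differences had a median of 0.02 and a central 95% from -0.58 to 0.65. Among probes that share a gene the SD of the difference was 0.14, a measure of probe noise that does not include the spread between mice. Vdr itself had 2076 on the knockout array and 2596 on the control array, 1.25-fold lower. Its other probes read 1430 in knockout against 1674 in control skin, 1.17-fold lower, and 217 against 212, slightly higher, so that Vdr checks the labels only weakly. The tissue label held, with Krt14 of basal keratinocytes at 35507 in knockout and 34643 in control skin.

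A few claudins and 1 connexin had knockout values at least 1.5-fold below those of control skin, 1 pannexin was as much higher, and most other detected junction genes were close between the arrays. Both arrays detected 21 of the 39 genes, 3 were above the floor in control skin alone, and 15 were below it on both. Among the 21, 4 had knockout values at least 1.5-fold lower (Cldn10, Cldn3, Cldn4 and Gja1), which is 19.0%, against 2.51% of all genes detected on both arrays. In the other direction 1 of 21 (4.76%), Panx3, was at least 1.5-fold higher, against 3.55% of all genes. The other 16 lay within 1.5-fold. After background correction by limma's neqc, the counts were 4 lower and 2 higher, with 4.71% and 7.39% of all genes past the mark. At 2-fold the counts were 1 lower (Cldn10) and 1 higher (Panx3), with 0.895% and 0.739% of all genes past that fold. The median over the 21 was -0.05, close to the 0.02 of all genes.

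**Figure D1:**
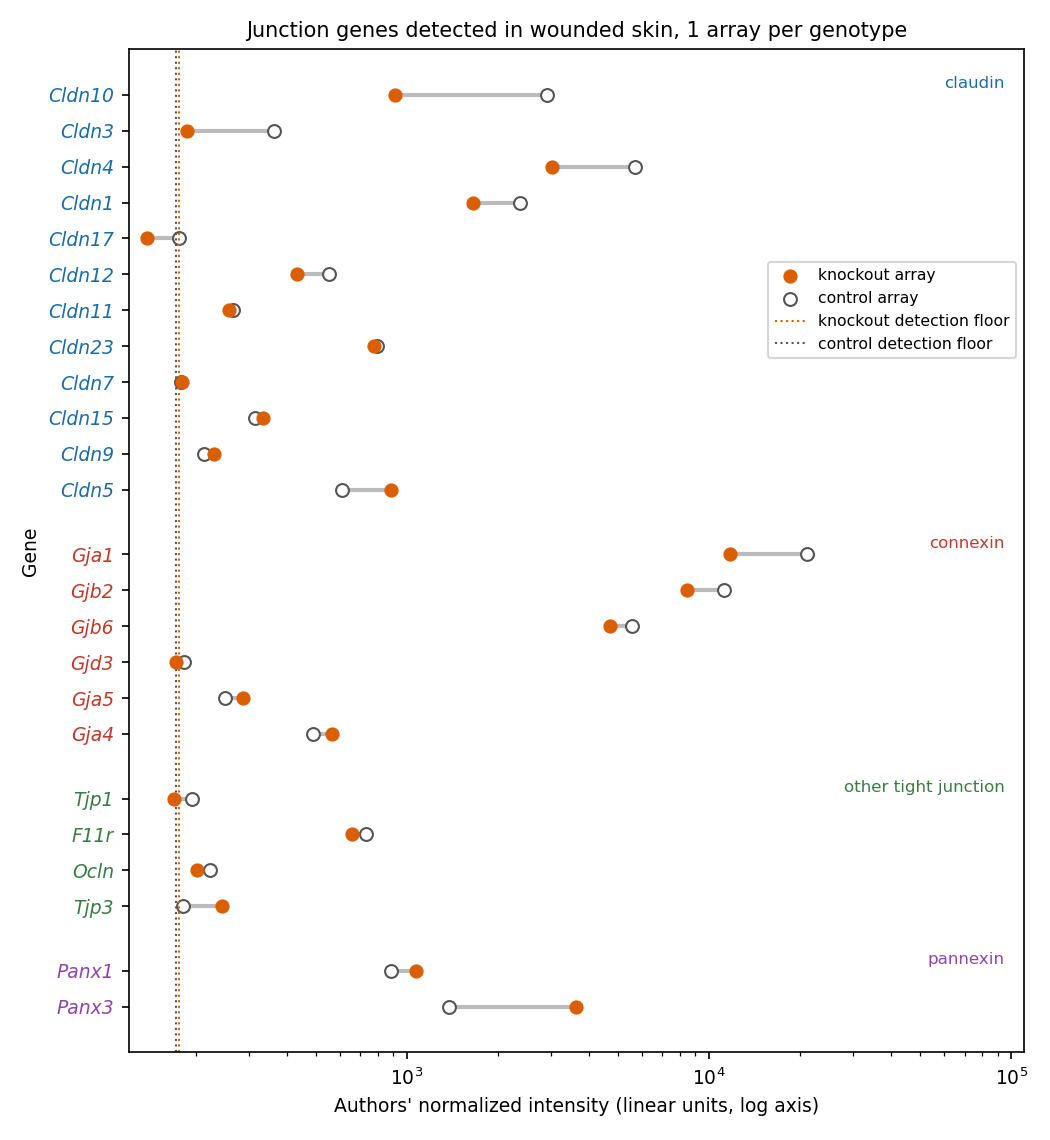
Normalized intensity (linear units on a log axis) of the 24 junction genes detected on at least 1 array, with a filled point for the knockout array, an open point for the control array and dotted lines at the detection floors. Cldn10, Cldn3, Cldn4 and Gja1 lie to the left of their control values and Panx3 to the right. Levels of different genes come from different probes and cannot be ranked.

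**Figure D2:**
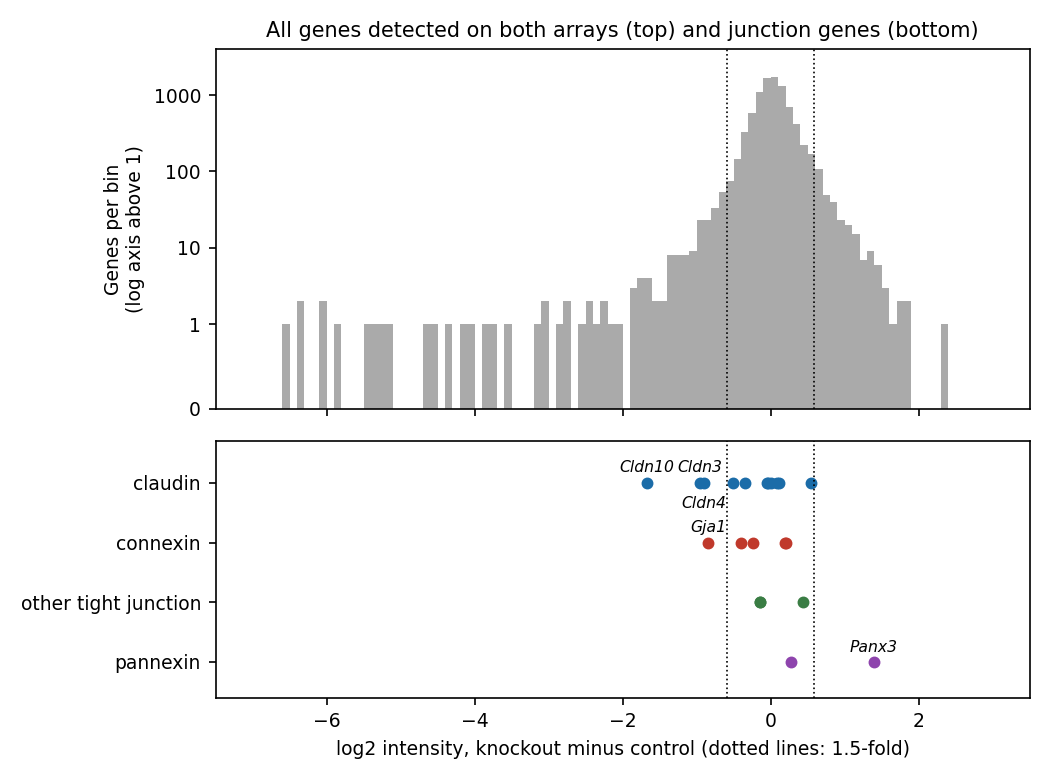
Upper panel, number of genes per 0.1 of log2 difference (knockout minus control) for the 8934 genes detected on both arrays, on an axis that is logarithmic above 1. Lower panel, the 21 junction genes by family on the same x axis, with names for those past 1.5-fold (dotted lines). The gene with the greatest fall among them, Cldn10 at -1.67, lies far from the lowest gene of the array at -6.54.

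The promoters of the genes that were lower by at least 1.5-fold are shown because these members carry the lower calls. RefSeq promoter windows of GRCm38.p6 were matched for 32 of the 39 genes, and for all 4 lower genes. The 250 bases before the start site are printed 5′ to 3′ on the gene's strand. Cldn10 has a pair of start sites, at chr14:118787621-118787870 (plus strand) and chr14:118854700-118854949 (plus strand). Cldn3 lies at chr5:134985964-134986213 (plus strand), Cldn4 at chr5:134946935-134947184 (minus strand) and Gja1 at chr10:56377050-56377299 (plus strand). Capitals mark matches, on either strand, to any of 7 motifs: the TATA box TATAAA, the GC box GGGCGG, the AP-1 site TGAGTCA, the Snail E-box CAGGTG, the TCF/LEF site CTTTGA, the Grainyhead site AACCGGTT and the direct repeat bound by the vitamin D receptor.
Cldn10 upstream start: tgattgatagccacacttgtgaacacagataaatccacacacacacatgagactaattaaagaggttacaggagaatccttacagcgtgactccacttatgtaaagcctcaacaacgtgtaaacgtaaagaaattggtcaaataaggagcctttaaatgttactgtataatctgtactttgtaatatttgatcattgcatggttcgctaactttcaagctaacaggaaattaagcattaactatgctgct
Cldn10 downstream start: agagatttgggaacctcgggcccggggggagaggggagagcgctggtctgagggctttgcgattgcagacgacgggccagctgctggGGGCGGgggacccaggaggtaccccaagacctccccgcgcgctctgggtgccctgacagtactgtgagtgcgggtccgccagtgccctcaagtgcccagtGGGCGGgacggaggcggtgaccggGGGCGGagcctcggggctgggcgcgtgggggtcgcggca
Cldn3: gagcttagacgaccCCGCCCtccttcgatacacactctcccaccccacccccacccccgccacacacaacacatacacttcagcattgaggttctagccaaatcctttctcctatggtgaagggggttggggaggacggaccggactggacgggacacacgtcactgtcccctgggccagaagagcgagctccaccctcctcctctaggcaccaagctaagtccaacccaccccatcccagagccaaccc
Cldn4: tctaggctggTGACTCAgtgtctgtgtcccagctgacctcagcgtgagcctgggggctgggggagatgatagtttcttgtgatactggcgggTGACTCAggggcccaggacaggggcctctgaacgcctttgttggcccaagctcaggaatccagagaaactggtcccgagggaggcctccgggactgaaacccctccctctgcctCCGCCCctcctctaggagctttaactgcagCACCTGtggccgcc
Gja1: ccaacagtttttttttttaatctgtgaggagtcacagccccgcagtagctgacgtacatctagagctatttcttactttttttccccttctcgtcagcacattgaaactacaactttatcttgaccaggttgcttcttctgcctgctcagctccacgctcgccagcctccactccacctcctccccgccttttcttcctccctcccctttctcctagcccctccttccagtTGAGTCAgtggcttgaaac

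In these windows Cldn4 held the AP-1 site at 2 places, 240 to 234 and 158 to 152 bases before the start, a GC box at 44 to 39 bases and an E-box at 14 to 9 bases. Gja1 held an AP-1 site 19 to 13 bases before its start. The downstream start of Cldn10 held 3 GC boxes in a window of 72.4% G and C, and its upstream start, with 36.0% G and C, held none of the 7 motifs. Cldn3 held 1 GC box. No match overlapped another. Among all 32851 windows of the same length the AP-1 site was found in 4.46%, the GC box in 32.7% and the E-box in 17.2%. The TATA box, found in 12.4% of all windows, the TCF/LEF site in 13.8%, the Grainyhead site in 0.116% and the receptor's direct repeat in 0.0396% had no match in the 5 windows printed. Over the 46 windows of the 32 matched genes the counts were 4 with the AP-1 site, 21 with the GC box, 12 with the E-box, 5 with the TATA box, 6 with the TCF/LEF site and 0 with the Grainyhead site or the direct repeat. A match is a description of the letters in a window and says nothing about binding.

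Among claudins, Cldn10 showed the greatest difference. It forms ion-selective pores in several epithelia, and it was at 912 in knockout and 2909 in control skin, 3.19-fold lower, the 42nd lowest difference of the 8934 genes. All 3 of its probes that were detected gave this: the other two read 456 against 1348 and 264 against 825, lower by 2.96-fold and 3.13-fold. Its remaining probe was below the floor on both arrays, at 143 and 150. In bulk skin, fewer cells that express a gene and less RNA per cell cannot be told apart.

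Cldn4 and Cldn3 are closely related barrier claudins that serve as receptors of a Clostridium toxin, and their genes are next to each other on chromosome 5. Cldn4 was at 3018 in knockout and 5660.5 in control skin, 1.88-fold lower. Cldn3 was at 188 in knockout skin, little above the floor of 176.7, and at 364 in control skin, 1.94-fold lower. With neqc the Cldn3 difference grew to 3.98-fold, while that of Cldn4 stayed at 1.92-fold, so the size of the Cldn3 difference depends on how background is treated. The neighbours thus differed in the same direction, Cldn3 by -0.96 and Cldn4 by -0.91 on the log2 scale.

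Cldn1, the main sealing claudin of the epidermis, fell short of the 1.5-fold mark. It was at 1654 in knockout and 2357 in control skin, 1.43-fold lower. Cldn12 was at 432 in knockout and 551 in control skin, 1.28-fold lower. Cldn5, the claudin of endothelial cells, had the greatest claudin difference in the other direction, at 887 in knockout and 609 in control skin, 1.46-fold higher, and 1.55-fold with neqc.

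The remaining detected claudins were close between the arrays. Cldn23 was at 780 in knockout and 797 in control skin, and Cldn11, a claudin of myelin and of Sertoli cells, at 257 and 267. Cldn15, a pore-forming claudin of the intestine, was at 333 in knockout and 313 in control skin, with a dimmer probe at 194.0 and 189.5. Cldn9 was at 229 in knockout and 213 in control skin. Cldn7, known from many simple epithelia, was at 180.0 in knockout and 179.0 in control skin, at the floor, so that a change could hardly have been seen. Cldn17 was above the floor in control skin alone, at 176.5, below the knockout floor, which leaves no fold to give. Over the 11 claudins detected on both arrays the median was -0.05, with 7 lower, of which 3 passed 1.5-fold, and 4 higher.

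The claudins detected on neither array were Cldn2, Cldn6, Cldn8, Cldn13, Cldn14, Cldn16, Cldn18 and Cldn19. Several of these are known from other organs: Cldn16 and Cldn19 from the kidney, Cldn18 from lung and stomach and Cldn14 from the inner ear. Their intensities ran from 137.6 to 160.4 on the knockout array and from 127.3 to 152.1 on the control array.

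Among connexins, Gja1 was lower, and the epidermal connexins Gjb2 and Gjb6 differed by less. Gja1 encodes Cx43, the most widely expressed connexin, found in keratinocytes and in dermal cells. It was at 11721 in knockout and 21073.5 in control skin, 1.80-fold lower, the 110th lowest difference of all genes, and 1.74-fold lower with neqc. Cx43 binds ZO-1 through its tail, and the ZO-1 gene Tjp1 is described with the tight junction partners.

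Gjb2 (Cx26) and Gjb6 (Cx30), neighbours on chromosome 14, are the beta connexins altered in human deafness and in keratodermas. Gjb2 was at 8449 in knockout and 11178 in control skin by its brightest probe, 1.32-fold lower. Its other probes read 1891 against 3144 and 1371 against 2077, lower by 1.66-fold and 1.51-fold. All 3 probes were lower in the knockout, and the side of the 1.5-fold mark depended on the probe. Gjb6 was at 4704 in knockout and 5568 in control skin, 1.18-fold lower.

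Gja4 (Cx37) and Gja5 (Cx40) are connexins of blood vessels. Gja4 was at 565 in knockout and 487 in control skin, 1.16-fold higher. Gja5 was at 286 in knockout and 249 in control skin, 1.15-fold higher, and 1.04-fold by its other detected probe.

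The other connexins lay at or below the floor. Gjd3, which stands in the files under the older name Gjc1, was above the floor in control skin alone. It was at 171.5 in knockout and 183.3 in control skin. The control value was 1.04-fold above the knockout floor, and the log2 difference of -0.10 was within the probe SD of 0.14. Detected on neither array were the lens connexin Gja3, Gja6, Gja10, Gjb1 (Cx32 of liver and Schwann cells), Gjb5 (Cx31.1, an epidermal connexin), Gjc1 (Cx45, under its older name Gja7) and Gjd2 (Cx36 of neurons, under its older name Gja9). These 7 ran from 142.9 to 176.5 on the knockout array and from 139.5 to 167.6 on the control array. Of the 5 connexins reported that were detected on both arrays 3 were lower, 1 of them past 1.5-fold, and 2 were higher.

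**Figure D3:**
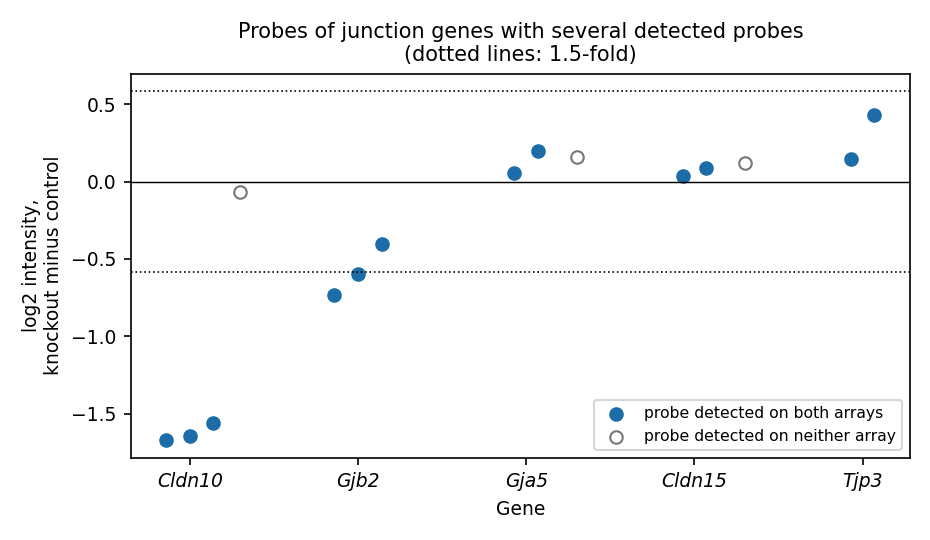
Log2 difference (knockout minus control) of each probe for the 5 junction genes with several detected probes, with filled points for probes detected on both arrays, open points for probes detected on neither and dotted lines at 1.5-fold. The 3 detected probes of Cldn10 lie between -1.67 and -1.56, those of Gjb2 between -0.73 and -0.40, on both sides of the mark.

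The scaffold and membrane partners detected on both arrays lay within 1.5-fold. Tjp1 (ZO-1), a scaffold that links claudins to actin, was above the floor in control skin alone. It was at 169.9 in knockout and 194.2 in control skin, the latter 1.10-fold above the knockout floor. With neqc Tjp1 was 1.64-fold lower, so the size of its difference depends on how background is treated. Tjp3 (ZO-3) was at 244.8 in knockout and 181.4 in control skin, 1.35-fold higher, while its other probe read 217.8 and 196.9, 1.11-fold higher. With neqc Tjp3, which is dim, was 2.23-fold higher on the first of these probes and higher by 0.39 on the log2 scale on the other, which neqc makes the brighter one. Occludin (Ocln), a membrane protein of the tight junction, was at 201.6 in knockout and 222.3 in control skin, and F11r (JAM-A), an adhesion molecule, at 659 and 730, lower by 1.10-fold and 1.11-fold. Of the 3 of these genes detected on both arrays 2 were lower and 1 was higher.

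Both pannexins of the gene set, Panx1 and Panx3, were higher in the knockout. Panx2, counted with the other junction genes below, was detected on neither array, at 140.7 in knockout and 141.9 in control skin. Panx3, a channel protein known from skin and cartilage, was at 3627 in knockout and 1379 in control skin, 2.63-fold higher, the 16th highest difference of the 8934 genes. It rests on 1 probe. Panx1, the widely expressed pannexin, was at 1070 in knockout and 884 in control skin, 1.21-fold higher.

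Most other junction genes detected on both arrays lay within 1.5-fold, with differences from -0.59 to 0.41 on the log2 scale. Of 32 listed 27 had a probe and 14 were detected on both arrays, with 7 higher, 7 lower and a median of -0.01. A further 2 were detected in control skin alone (Cgnl1 and Pard3) and 3 in knockout skin alone (Jam2, Ildr1 and Magi1). Of the 14, none was at least 1.5-fold higher and 1 was as much lower, against 3.55% and 2.51% of all genes detected on both arrays. It was Ybx3, the ZO-1-associated Y-box protein, at 661 in knockout and 995 in control skin, 1.51-fold lower. Short of the mark, Lsr was at 326 in knockout and 468 in control skin, 1.44-fold lower. Cxadr was at 2247 in knockout and 1696 in control skin, 1.33-fold higher. Of 15 listed regulators of epithelial junction genes 13 were detected on both arrays, with a median of -0.06. Only 1 of the 13 passed 1.5-fold, Ovol1, a transcriptional repressor of epidermis and hair, at 838.5 in knockout and 1663 in control skin, 1.98-fold lower. With lists this short, 1 call says little about either list.

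Markers of several skin compartments differed between the same samples. Of 15 listed markers of the growing hair follicle 13 had a probe and 9 were detected on both arrays. All 9 passed the 1.5-fold mark downwards, against 2.51% of all genes detected on both arrays. Their median was -6.03. Their summed intensity was 3695 on the knockout array and 162181 on the control array, 2 further markers (Msx2 and Hoxc13) were detected on the control array only, and Krt25 and Foxn1 on neither. The part of this difference in the lower values of Cldn10, Cldn3, Cldn4, Gja1 and Ovol1 was not tested. All 8 sebaceous gland markers were higher in the knockout, 6 of them past 1.5-fold, against 3.55% of all genes. Their median was 0.89, with sums of 79757 and 42073, and their part in the higher Panx3 value was not tested.

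Markers of the interfollicular epidermis differed by less and in both directions. The 8 basal keratinocyte markers had a median of 0.13 and summed intensities of 72153 in knockout and 68807 in control skin, with none past 1.5-fold. The 10 suprabasal markers with a probe, of 11 listed, had sums of 86055 and 71259. The 9 of them detected on both arrays had a median of 0.17. Of these 9, 5 were higher, with Casp14 at 0.73 the only one past 1.5-fold, and 4 were lower: Ivl at -0.49, Tgm3 at -0.43, Dsc1 at -0.40 and Tgm1 at -0.38 on the log2 scale. The sums rest largely on a few bright probes, among them Krt14 and Krt10. The part of these markers in the lower values of Cldn4, Cldn1 and Gja1 was not tested.

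Of 7 endothelial markers 6 were detected on both arrays, with 5 higher, none past 1.5-fold, and a median of 0.23. Kdr was detected on neither. With Kdr included, the 7 had summed intensities of 3970 in knockout and 3335 in control skin. The vascular junction genes Cldn5, Gja4 and Gja5 were higher by 0.54, 0.21 and 0.20 on the log2 scale, and Esam, an endothelial adhesion molecule among the other junction genes, by 0.36. The part of the endothelial markers in these values was not tested. Melanocyte markers, with 4 of 5 detected on both arrays, and erythrocyte markers, with 3 of 4, were also lower, with medians of -3.29 and -0.81. Of Langerhans and dendritic cell markers with a probe 4 of 5 were detected on both arrays, and of T cell markers 3 of 4. These were higher, with medians of 0.85 and 0.89. H2-Aa was above the floor in knockout skin alone, at 177.8 against 156.7, and Cd8a was detected on neither array. The lists for wound keratinocytes, fibroblasts, skeletal muscle, macrophages, neutrophils and Schwann cells had medians between 0.03 and 0.39.

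**Figure D4:**
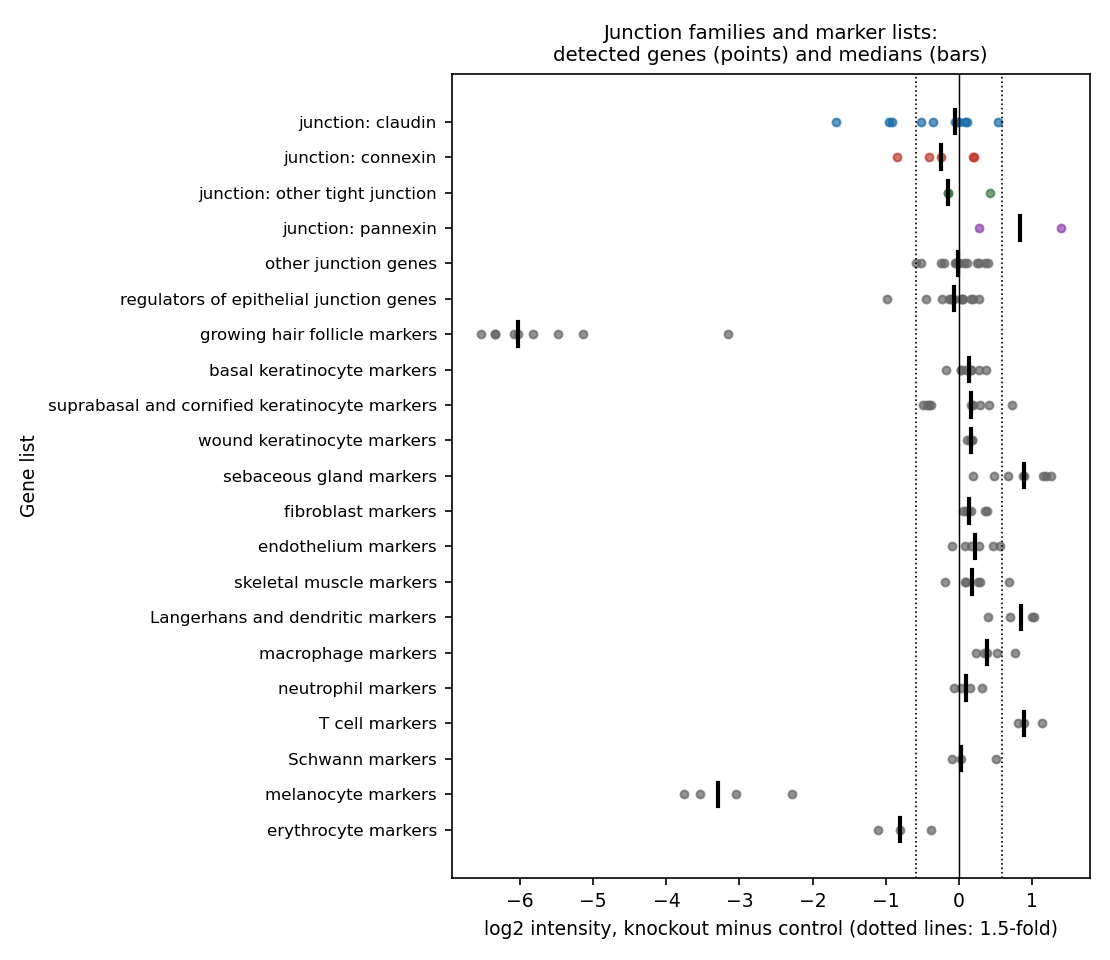
Log2 difference (knockout minus control) of each gene detected on both arrays, as a point, for the 4 junction families, the lists of other junction genes and regulators and 15 marker lists, with a bar at each median and dotted lines at 1.5-fold. The claudin median of -0.05 lies near 0, the connexin bar covers 5 genes and is not that of the whole family, while the growing hair follicle median lies at -6.03 and the sebaceous gland median at 0.89.

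**Figure D5:**
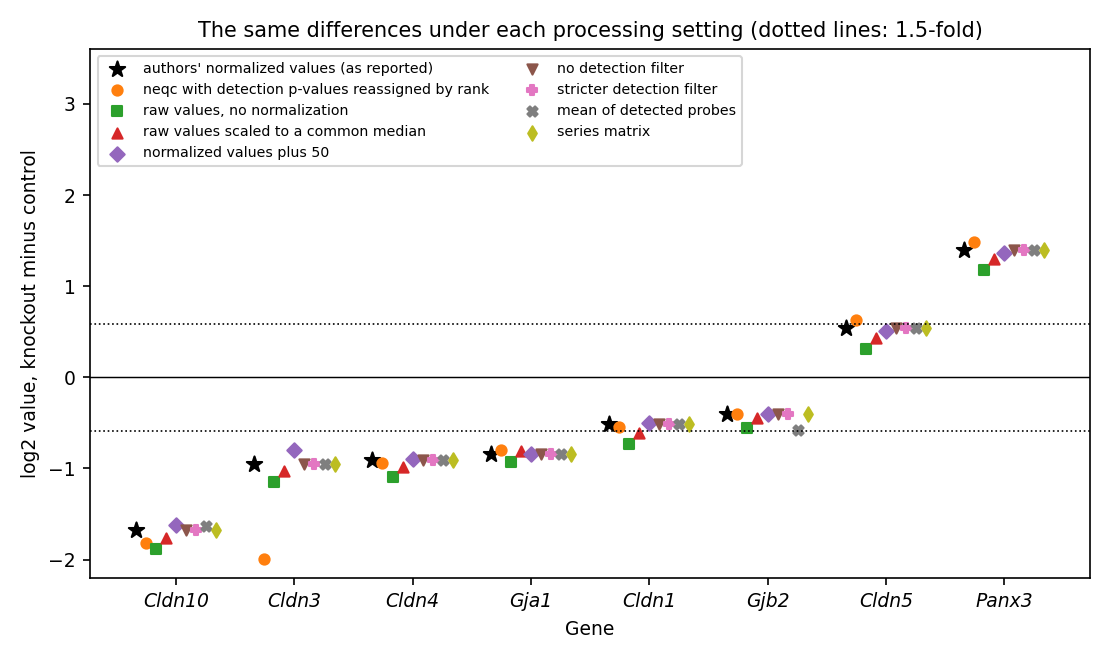
Log2 difference (knockout minus control) of 8 junction genes under the reported setting (star) and 8 alternatives (other symbols), with dotted lines at 1.5-fold. Cldn10, Cldn3, Cldn4 and Gja1 stay below the lower line and Panx3 above the upper one in each setting. Cldn1 and Cldn5 cross a line in some. The series matrix and the detection filter settings repeat the reported values and could not move. Averaging probes could move only genes with several detected probes.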

How the data were processed

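Illumina mouse bead arrays of 1 colour measured total RNA of wounded skin, 1 array of knockout and 1 of control, grouped by sample title. Scanner data were processed in GenomeStudio 2011.1, per the submitters' processing notes. The deposited raw and normalized tables hold linear intensity per probe, and per the file headers a detection p-value beside each. No source used here says how the authors treated background or which normalization they chose. The normalized columns share their quantiles, and the series matrix equals them. The deposited p-values did not follow the signals (rank correlation 0.0080 on the knockout array and 0.0091 on the control array), so they served only to count detected probes, 12161 and 12588 of 25697.

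Probes were named through RefSeq genes of GRCm38.p6 (25376 of 25697, 321 kept the file's name). Differences were taken between log2 values of the deposited normalized intensity, with nothing added. With 1 array per group nothing was tested. The code that counts genes past a fold was run on simulated arrays, with shifts well past the mark and noise below that of the probes. That run checks the code only and says nothing about how reliable counts from 1 array per group are. Background correction used neqc of limma 3.58.1 with the p-values reassigned by rank of signal. The number of arrays limits the precision. Of 44 genes that meet the rule 5 are not reported here and enter no count of junction genes. The genes and lists were chosen with earlier results of these data known. Every reported junction gene detected on at least 1 array was named with its values, as were the genes past 1.5-fold among other junction genes and regulators. Naming those of the marker lists was planned too, but these lists are given mainly by counts and medians.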

Additional observations from a re-analysis of the deposited data

How the results depend on the processing

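The 4 junction genes at least 1.5-fold lower and Panx3 as the 1 higher gene kept their side of the mark under the 8 alternatives tried. With neqc 2 genes were higher, as Cldn5 crossed the mark at 0.63. The split of calls was then 2 higher and 4 lower, against 1 and 4 as reported, and 7.39% of all genes were past the mark upwards and 4.71% downwards. Without normalization, where the median of all genes moved to -0.16, and with scaling to a common median, Cldn1 joined the lower genes, which came to 5. Without normalization 1.46% of all genes were higher and 5.14% lower by that mark, against 3.55% and 2.51%. The claudin median ran from -0.35 to 0.00, that of the connexins reported from -0.43 to 0.03 and that of the other tight junction genes reported from -0.30 to -0.11, so none of these passed 1.5-fold. The connexin median was above 0 only without a detection filter. Of 185 values of named genes under the alternatives, 2 moved by over 0.58 on the log2 scale and none that passed 1.5-fold changed sign. These were Cldn3 and Cldn17 with neqc, at -1.99 and -1.21. Tjp3 is counted there by the probe that is brighter with neqc, at 0.39. On its reported probe the difference was 1.15 with neqc, against 0.43, and would have been a further higher gene. Cldn3 and Cldn17 are dim on the knockout array, where signal over background limits the size of a difference. The series matrix and the settings that changed only the detection filter repeat the reported difference of each named gene they keep. Those values could not move, and averaging probes could move only genes with several detected probes. No paired analysis was possible because each group has 1 array.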
